A study of Homo sapiens with 24 samples.

Results

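The genes described here are 59 genes of the mitotic spindle, the kinetochore and the condensed chromosome, taken by name from a given list, out of 19775 genes measured. They comprise 9 kinesins, 13 kinetochore genes, 9 genes of the spindle checkpoint and of anaphase, 10 mitotic kinases with their partners and the B cyclins, 7 genes of condensin and chromosome structure, 5 spindle assembly genes, 4 cytokinesis genes and 2 transcription factors of the mitotic programme. Each gene was represented by the probe set that names this gene alone and has the highest mean log2 signal, leaving out probe sets of the less specific type ending in _x_at where another existed. All 59 were detected in every comparison.

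The study treated 4 prostate cancer cell lines for 24 hours with I-BET762 (GSK525762A), an inhibitor of the BET bromodomain proteins, which bind acetylated histones and help to recruit the transcription machinery. Cells labelled VCaP, LNCaP, PC3 and NCI-H660 each received 0.5 µM I-BET762, 10 µM I-BET762 or vehicle (DMSO), with 2 independent biological replicates per group, giving 12 groups and 24 Affymetrix arrays. VCaP, LNCaP and PC3 are lines from metastases of prostate carcinoma, and NCI-H660 is a line from a neuroendocrine prostate cancer. By their labels the groups of a line differ only in the compound and its dose, and each line comes from 1 tumour.

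During mitosis the duplicated chromosomes are compacted by condensin, captured at their kinetochores by spindle microtubules, and pulled apart once the spindle checkpoint has been satisfied, after which the central spindle directs cytokinesis. Most of these genes are transcribed mainly in G2 and M phase, under repression by the DREAM complex in resting cells and activation by MYBL2 and FOXM1 in dividing cells. Their transcripts are therefore low in cultures in which few cells are dividing. In RNA from whole cultures, fewer cells in G2 or mitosis and less of a transcript per cell cannot be told apart, and this applies to every change given below.

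The DREAM complex is known to act on such promoters at a pair of short elements, the CCAAT box and the cell cycle homology region (CHR). RefSeq promoter windows (build GRCh38.p14, 250 bases before to 50 bases after the annotated start of transcription) were found for 49 of the 59 genes and searched on both strands for CCAAT, for the CHR letters, either TTTGAA, which reads TTCAAA on the other strand, or else TTCGAA, for 4 spellings of an E2F element (TTTCCCGC, TTTCGCGC, TTTGCCGC and TTTGGCGC) and for the E-box CACGTG. Stretches covering the last 120 bases before the start are shown for 6 genes whose changes are described below, all read on the + strand, with CCAAT boxes, which read ATTGG when they lie on the other strand, and CHR letters in capitals. They show the usual arrangement (KIF23 at chr15:69414229-69414348, ESPL1 at chr12:53268179-53268298), more than 1 CCAAT box (CDCA8 at chr1:37692396-37692515), CCAAT boxes without CHR letters (KIF20A at chr5:138178992-138179111), CHR letters without a CCAAT box (ANLN at chr7:36389742-36389861), and neither (MYBL2 at chr20:43666994-43667113).
KIF23: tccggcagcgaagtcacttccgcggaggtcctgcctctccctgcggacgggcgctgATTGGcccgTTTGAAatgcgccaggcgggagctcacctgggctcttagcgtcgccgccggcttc
ESPL1: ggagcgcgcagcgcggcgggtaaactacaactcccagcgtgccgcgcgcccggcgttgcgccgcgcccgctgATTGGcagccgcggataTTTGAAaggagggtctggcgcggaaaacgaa
CDCA8: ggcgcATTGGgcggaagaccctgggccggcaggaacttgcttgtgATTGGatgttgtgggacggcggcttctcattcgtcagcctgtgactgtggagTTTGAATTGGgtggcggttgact
KIF20A: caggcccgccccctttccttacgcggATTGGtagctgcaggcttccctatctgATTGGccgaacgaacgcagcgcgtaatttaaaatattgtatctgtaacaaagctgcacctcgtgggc
ANLN: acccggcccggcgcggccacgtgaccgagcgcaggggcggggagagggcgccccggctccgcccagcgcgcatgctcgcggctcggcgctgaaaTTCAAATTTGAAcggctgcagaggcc
MYBL2: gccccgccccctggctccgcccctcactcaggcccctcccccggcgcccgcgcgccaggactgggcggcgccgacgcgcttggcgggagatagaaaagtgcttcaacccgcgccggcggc

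CHR letters occurred in 38 of the 49 promoters (77.6%), against 13.3% of the 15382 promoters of genes on the array. CCAAT occurred in 36 (73.5%), against 36.1%, and both occurred in 29 (59.2%), against 5.43%. A CCAAT box was present 2 or more times in 46.9% of the promoters, against 12.3% of all. The E2F letters were found in 4 of them (8.16%), against 4.36%, and the E-box in 6 (12.2%), against 8.90%. In 32 promoters the CHR letters began within 60 bases of the start, on either side, and in 2 the CCAAT and CHR letters shared a base. By role, CCAAT and CHR letters were each found in 4 of 4 spindle assembly promoters, 7 of 9 kinesin promoters and 7 of 11 kinetochore promoters. These are matches of letters, which do not show that a factor was bound. Elements of other spellings were not searched for, so a promoter without a match, such as that of MYBL2, may still hold one.

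**Figure D1:**
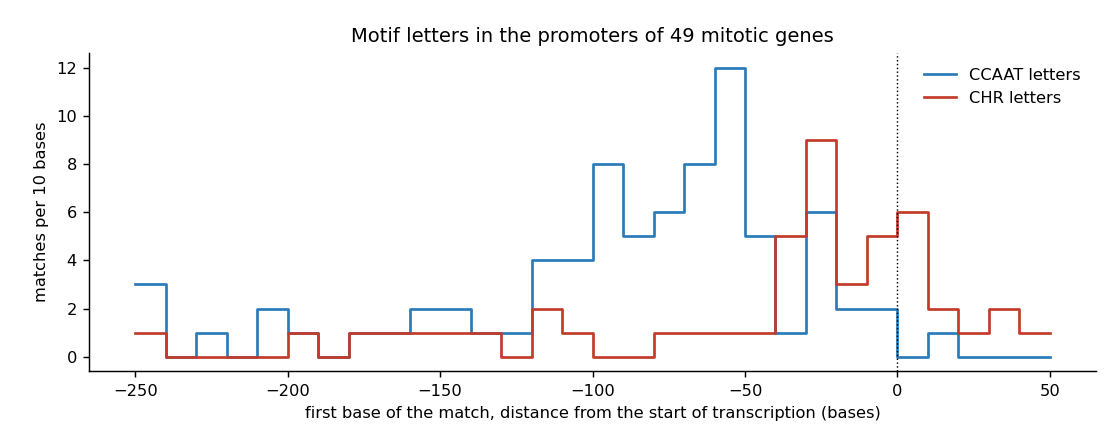
Positions of CCAAT and CHR letters in the 49 promoters. The horizontal axis gives the distance of a match's first base from the start of transcription in bases and the vertical axis the matches per 10 bases; CHR letters lie close to the start, and 32 promoters have them within 60 bases of it.

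Signals are MAS5 intensities, linear values with a scaling target of 500 per array. A gene was called changed in limma with an adjusted p under 0.1 (Benjamini-Hochberg over all probe sets of a comparison) where its mean signal reached 100 in at least 1 of the groups compared. The background for each comparison is the percentage of all detected genes called in the same direction. Across the 24 arrays the median signal was 72.2 to 100.3, 44.4% to 50.1% of probe sets reached 100, the correlation between log2 values of replicates was 0.934 to 0.953, and the 3′ to 5′ ratio of GAPDH, a sign of RNA integrity, was 0.721 to 0.924. Each comparison within a line rests on 2 arrays per group.

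The labels of 2 lines went against markers of those lines. ERG, which is fused to TMPRSS2 in VCaP and NCI-H660, had a vehicle mean of 18.1 in the group labelled VCaP and of 6984 in the group labelled LNCaP, whereas ETV1, which is rearranged in LNCaP, had means of 375 and 43.0. These groups are therefore called by their labels throughout, and comparisons within the other 2 lines use their arrays only through the shared estimate of the spread. The luminal marker KLK3 averaged 20385 in vehicle in the first of these groups and 7931 in the second, against 29.5 in PC3 and 15.7 in NCI-H660. The neuroendocrine marker CHGA averaged 2568 in NCI-H660 but was not confined to that line. In vehicle the log2 difference of the group labelled VCaP was −5.64 from that labelled LNCaP, −1.32 from PC3 (not called) and −7.64 from NCI-H660.

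At 0.5 µM all 59 mitotic genes fell on the arrays labelled VCaP and none rose, where 13.2% of all detected genes were called lower and 11.8% higher. Of the 59, 56 fell by more than 2-fold, as did 4.29% of all genes. The median change was −1.72 on the log2 scale (3.29-fold lower), with a range of −3.28 to −0.58, beside a median of 0.03 over all genes. Both treated arrays lay below both vehicle arrays for each of the 59, which held for 34.5% of all genes. The median signal over the 59 genes was 461 and 525 on the treated arrays, against 1895 and 1890 on the vehicle arrays.

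At 10 µM, 56 of the 59 fell and none rose on the arrays labelled VCaP (backgrounds 21.8% and 20.1%), 41 of them by more than 2-fold (background 8.42%). The median change was −1.45 (2.73-fold lower), and the median signal over the genes was 718 and 661. By the chosen probe sets, the 3 that did not pass were KIF18A, CENPF and SMC4, with log2 changes of 0.04, −0.45 and −0.25. The 2 other probe sets of CENPF changed there by −1.09 and −1.01, and 1 of them was called lower. Both doses were set against the same vehicle arrays.

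**Figure D2:**
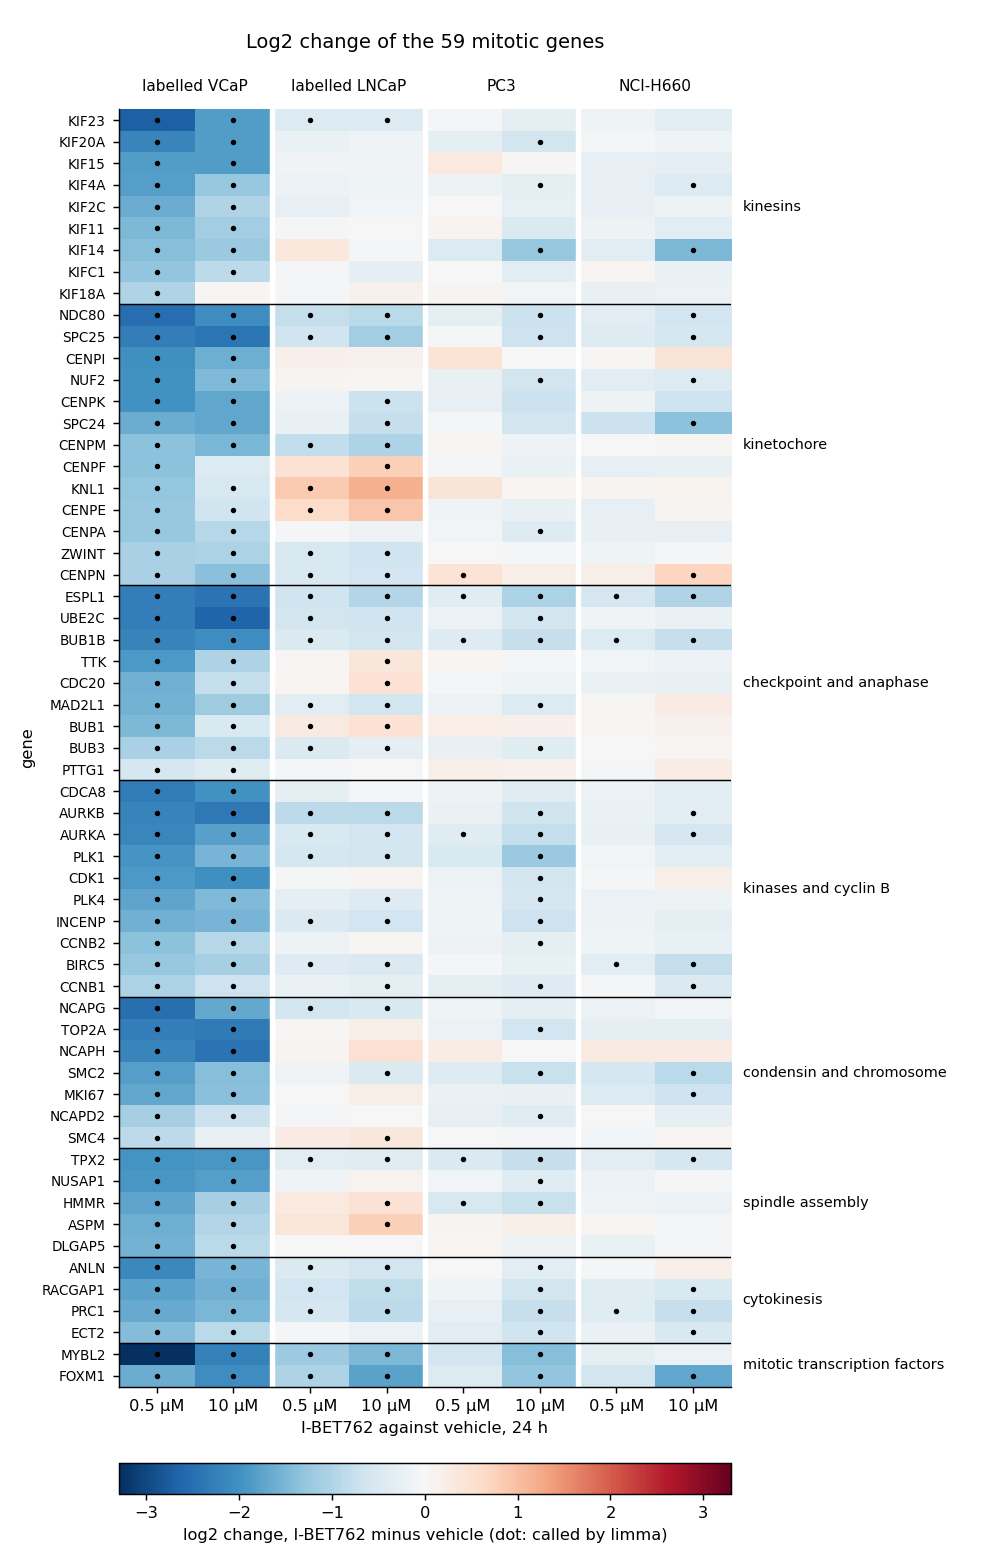
Log2 change of the 59 genes (rows, by role) at 0.5 and 10 µM I-BET762 against vehicle in each line (columns, n = 2 arrays per group); a dot marks a change called by limma. All 59 rows are lower in the 0.5 µM column labelled VCaP (median −1.72) and 56 are called lower in its 10 µM column (median −1.45), while the other columns have medians between −0.41 and −0.14 and hold some rises.

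In the kinesins, motor proteins that move along or take apart microtubules, all 9 fell at 0.5 µM on the arrays labelled VCaP, with a log2 median of −1.64. KIF23 (chromosome 15), a motor of the central spindle, read 639 and 695 in vehicle, 103 and 104 at 0.5 µM and 231 and 150.1 at 10 µM. The readings at 0.5 µM lay just above the detection floor, and no array of either dose overlapped vehicle. The changes were −2.69 ± 0.16 at 0.5 µM and −1.84 ± 0.16 at 10 µM (log2 ± SE, adjusted p = 3.26e-07 and 3.87e-06). KIF20A, which brings the chromosomal passenger complex to the central spindle, read 608 and 575 at 0.5 µM against 2576 and 2779 in vehicle (−2.18 ± 0.11). KIF18A, which damps chromosome movements at the metaphase plate, read 320.0 and 249.8 in vehicle, 129 and 159 at 0.5 µM, and 261 and 325 at 10 µM. Its readings at 10 µM overlapped those in vehicle.

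At 10 µM 1 of the 9 kinesins fell on the arrays labelled LNCaP (background 26.7%), 3 in PC3 (background 14.0%) and 2 in NCI-H660 (background 16.8%). By the chosen probe sets, KIF23 was the 1 kinesin called lower on the arrays labelled LNCaP, at either dose. It read 1018 and 951 at 0.5 µM against 1357 and 1325 in vehicle. The other probe set of KIF23 changed there by 0.37 at 0.5 µM and 0.80 at 10 µM and was not called. Another probe set of KIF2C was called lower there at 0.5 µM (−0.33). KIF14, a kinesin of cytokinesis, behaved otherwise in PC3 and NCI-H660. In PC3 it read 2057 and 2074 in vehicle, 1461 and 1571 at 0.5 µM and 1035 and 726 at 10 µM, a change of −1.25 ± 0.20 at 10 µM (adjusted p = 0.00125). In NCI-H660 it read 1751 and 1814 in vehicle, 1384 and 1442 at 0.5 µM and 654 and 633 at 10 µM, a change of −1.47 ± 0.20 at 10 µM (adjusted p = 0.000299). It was not called at 0.5 µM in either line. In the line labelled LNCaP its treated and vehicle readings overlapped at 10 µM (389.6 and 374, against 316 and 481).

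In the kinetochore, the protein assembly that binds microtubules to the centromere, all 13 genes fell at 0.5 µM on the arrays labelled VCaP (median −1.35). NDC80, NUF2, SPC24 and SPC25 encode the 4 subunits of the NDC80 complex, its main microtubule-binding unit, and changed by −2.52, −2.00, −1.64 and −2.28. The 1 other probe set of SPC24 changed there by 0.62 at 0.5 µM and −0.01 at 10 µM and was not called. NDC80 (chromosome 18) read 2684 and 3218 in vehicle, 529 and 499 at 0.5 µM and 718 and 714 at 10 µM. SPC25 read 981 and 923 in vehicle, 171 and 225 at 0.5 µM and 187 and 169.8 at 10 µM. Both genes lay well below vehicle at both doses, NDC80 slightly higher at 10 than at 0.5 µM and SPC25 with overlapping readings at the 2 doses. The smallest falls at 0.5 µM in this role were −1.06 for CENPN and for ZWINT.

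NDC80 and SPC25 were also called lower at 10 µM in the other 3 lines. NDC80 read 774 and 851 at 10 µM against 1518 and 1476 in vehicle under the LNCaP label (−0.88 ± 0.12), 1235 and 1473 against 2129 and 2251 in PC3 (−0.70 ± 0.12), and 2761 and 3025 against 4362 and 4646 in NCI-H660 (−0.64 ± 0.12). SPC25 changed by −1.14, −0.67 and −0.57 in these lines (adjusted p = 8.21e-05, 0.0116 and 0.0249). SPC24 was called lower in NCI-H660 at 10 µM, with 308 and 353 against 841 and 833 in vehicle (−1.34 ± 0.26, adjusted p = 0.00375).

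The checkpoint and anaphase genes include the checkpoint proteins BUB1, BUB1B, BUB3, MAD2L1 and TTK, the anaphase-promoting complex activator CDC20 and its ubiquitin-conjugating enzyme UBE2C, securin (PTTG1) and separase (ESPL1). All 9 fell at 0.5 µM on the arrays labelled VCaP (median −1.57), PTTG1 with a change of −0.58 and the other 8 with changes of −2.27 to −1.06. ESPL1 (chromosome 12), the protease that opens the cohesin rings, read 1019.6 and 975 in vehicle, 190.3 and 224 at 0.5 µM and 189 and 178 at 10 µM. UBE2C read 5469.6 and 5081 in vehicle, 1055 and 1133 at 0.5 µM and 839 and 854 at 10 µM. Both genes stayed low at 10 µM, and UBE2C was lower there than at 0.5 µM on both arrays. BUB1 instead read 1155 and 1049.6 in vehicle, 413 and 381 at 0.5 µM and 795 and 768 at 10 µM.

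ESPL1 was 1 of 2 genes called lower in all 4 lines at both doses, the other being BUB1B. Neither kept all of these calls after median centring, with the replicate number as a block or with each line fitted alone, and no gene was called at 0.5 µM in PC3 or NCI-H660 after median centring or with these lines fitted alone. Under the LNCaP label it read 2288 and 2434 in vehicle, 1516 and 1457 at 0.5 µM and 1275 and 1142 at 10 µM. In PC3 it read 1097 and 1128 in vehicle, 843 and 853 at 0.5 µM and 525 and 561 at 10 µM. In NCI-H660 it read 3573 and 3295 in vehicle, 2269 and 2427 at 0.5 µM and 1667 and 1789.7 at 10 µM. In each of these 3 lines the readings stepped down with dose and no 2 groups overlapped. The changes at 10 µM were −0.97, −1.03 and −0.99 (SE 0.11 each, adjusted p = 2.14e-05, 6.78e-05 and 6.22e-05), against −2.44 ± 0.11 on the arrays labelled VCaP.

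Among the mitotic kinases, their partners and the B cyclins, all 10 fell on the arrays labelled VCaP at 0.5 µM (median −1.82) and at 10 µM. Aurora B (AURKB), INCENP, borealin (CDCA8) and survivin (BIRC5) form the chromosomal passenger complex, which corrects faulty attachments, and changed by −2.20, −1.59, −2.31 and −1.26 at 0.5 µM. AURKB (chromosome 17) read 1121 and 1158 in vehicle, 223 and 276 at 0.5 µM and 237 and 205 at 10 µM. CDCA8 read 1984 and 2105 in vehicle, 328 and 519 at 0.5 µM and 506 and 522 at 10 µM. For both genes the readings at 10 µM and at 0.5 µM overlapped. CDK1, the kinase that starts mitosis, changed by −1.89 and −2.03 at the 2 doses, and its partner cyclin B1 (CCNB1) by −1.04 and −0.69.

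In PC3, 8 of the 10 were lower at 10 µM (background 14.0%). PLK1, a kinase needed for spindle poles, kinetochores and cytokinesis, read 1016 and 856 in PC3 vehicle, 608 and 699 at 0.5 µM and 392 and 399 at 10 µM, a change of −1.24 ± 0.17 at 10 µM (adjusted p = 0.000425). AURKB fell at 10 µM in the lines other than that labelled VCaP as well, with 575 and 595 against 1017 and 1146 in vehicle under the LNCaP label, 779 and 806 against 1213 and 1305 in PC3, and 1102 and 933 against 1292 and 1318 in NCI-H660. The change was −0.88 on the arrays labelled LNCaP, −0.67 in PC3 and −0.36 in NCI-H660. The other probe set of AURKB changed by −0.20, −0.88 and 0.11 in this order and was not called. After median centring or with the replicate number as a block, AURKB was no longer called lower in all 4 lines at 10 µM. BIRC5 was called in NCI-H660, with 1839.7 and 1719 at 10 µM against 3218 and 2903 in vehicle (−0.78 ± 0.10, adjusted p = 0.000222).

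Condensin I is built from the ATPases SMC2 and SMC4 and the subunits NCAPD2, NCAPG and NCAPH. With topoisomerase II alpha (TOP2A), which untangles sister DNA, and MKI67, which coats mitotic chromosomes, the 7 genes of this role fell at 0.5 µM on the arrays labelled VCaP (median −1.83). NCAPG (chromosome 4) read 1477 and 1565 in vehicle, 251 and 293 at 0.5 µM and 474 and 469 at 10 µM. TOP2A read 1909 and 2219 in vehicle, 368 and 483 at 0.5 µM and 408 and 414 at 10 µM. The changes within condensin ranged at 0.5 µM from −2.49 for NCAPG and −2.17 for NCAPH through −1.83 for SMC2 to −1.10 for NCAPD2 and −0.86 for SMC4.

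TOP2A on the arrays labelled LNCaP read 3854 and 4787 in vehicle, 4417 and 4358 at 0.5 µM and 5085 and 4825 at 10 µM, and was not called. NCAPG was called lower there at both doses (−0.61 ± 0.13 at 0.5 µM, adjusted p = 0.0056). SMC2 was lower at 10 µM in all 4 lines. It read 593 and 747 at 10 µM against 811 and 1045 in vehicle under the LNCaP label (−0.47 ± 0.19), 1026 and 1164 against 1899.9 and 1743 in PC3 (−0.74 ± 0.19) and 1827 and 1945 against 3499 and 3445 in NCI-H660 (−0.88 ± 0.19).

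The spindle assembly genes TPX2, NUSAP1, HMMR, ASPM and DLGAP5 encode proteins that nucleate, bundle or focus microtubules, and all 5 fell at both doses on the arrays labelled VCaP (median −1.75 at 0.5 µM). TPX2 (chromosome 20), which activates Aurora A, read 3809 and 3406 in vehicle, 896 and 935 at 0.5 µM and 864 and 1031 at 10 µM. NUSAP1 read 7743 and 8049 in vehicle, 1977 and 2168 at 0.5 µM and 2330.5 and 2187 at 10 µM. Both stayed far below vehicle at 10 µM. TPX2 was also lower at 10 µM on the arrays labelled LNCaP (−0.40), in PC3 (−0.75) and in NCI-H660 (−0.56), the last of which did not pass after median centring.

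The 4 cytokinesis genes fell at both doses on the arrays labelled VCaP (median −1.72 at 0.5 µM) and at 10 µM in PC3 (background 14.0%). ANLN (chromosome 7), a scaffold of the contractile ring, read 1803 and 2188 in vehicle, 461 and 453 at 0.5 µM and 701 and 661 at 10 µM on the arrays labelled VCaP. RACGAP1, which with KIF23 forms centralspindlin, read 4797 and 3763 in vehicle, 1254 and 1256 at 0.5 µM and 1319.9 and 1532 at 10 µM. PRC1, which bundles the antiparallel microtubules of the central spindle, was called lower in all lines at 10 µM. It read 5567 to 6153 at 10 µM against 10608 to 10668 in vehicle under the LNCaP label (−0.86 ± 0.10), 6366 to 6489 against 10784 to 10839.5 in PC3 (−0.75 ± 0.10) and 6591 to 6809.7 against 10870.5 to 11741 in NCI-H660 (−0.75 ± 0.10). Under the VCaP label it changed by −1.52 ± 0.10.

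MYBL2 and FOXM1 are transcription factors that act in turn on mitotic promoters. MYBL2 (chromosome 20) had the lowest value of the 59 changes at 0.5 µM, with 84.4 and 159.8 against 1063 and 1200.4 in vehicle on the arrays labelled VCaP (−3.28 ± 0.27, adjusted p = 4.7e-06). Its readings at 10 µM were 316 and 180.3. One of the 0.5 µM readings lay under the detection floor, and the replicates of each dose differed widely. Under the LNCaP label it read 1873 and 2242 in vehicle, 825 and 955 at 0.5 µM and 733 and 731 at 10 µM. In PC3 it read 1357 and 1437 in vehicle, 892 and 896 at 0.5 µM and 470.4 and 587 at 10 µM, and it was not called in NCI-H660 (1595 and 1708 at 10 µM, against 1856 and 1905 in vehicle).

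FOXM1 stepped down with dose in each line. It read 1933 and 1890.5 in vehicle, 641 and 596 at 0.5 µM and 462 and 464 at 10 µM on the arrays labelled VCaP. On those labelled LNCaP it read 3470.3 and 3586 in vehicle, 1753 and 1726 at 0.5 µM and 1037 and 1047 at 10 µM. In PC3 it read 2656 and 2756, then 2049 and 1916, then 1435 and 828, and in NCI-H660 1334 and 1326, then 834 and 900.5, then 409.5 and 397, in the same order of doses. No 2 dose groups of a line overlapped. The changes at 10 µM were −2.05, −1.76, −1.31 and −1.72 (SE 0.18 each) on the arrays labelled VCaP, on those labelled LNCaP, in PC3 and in NCI-H660, and FOXM1 was called lower than at 0.5 µM in the last 3 of these.

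**Figure D3:**
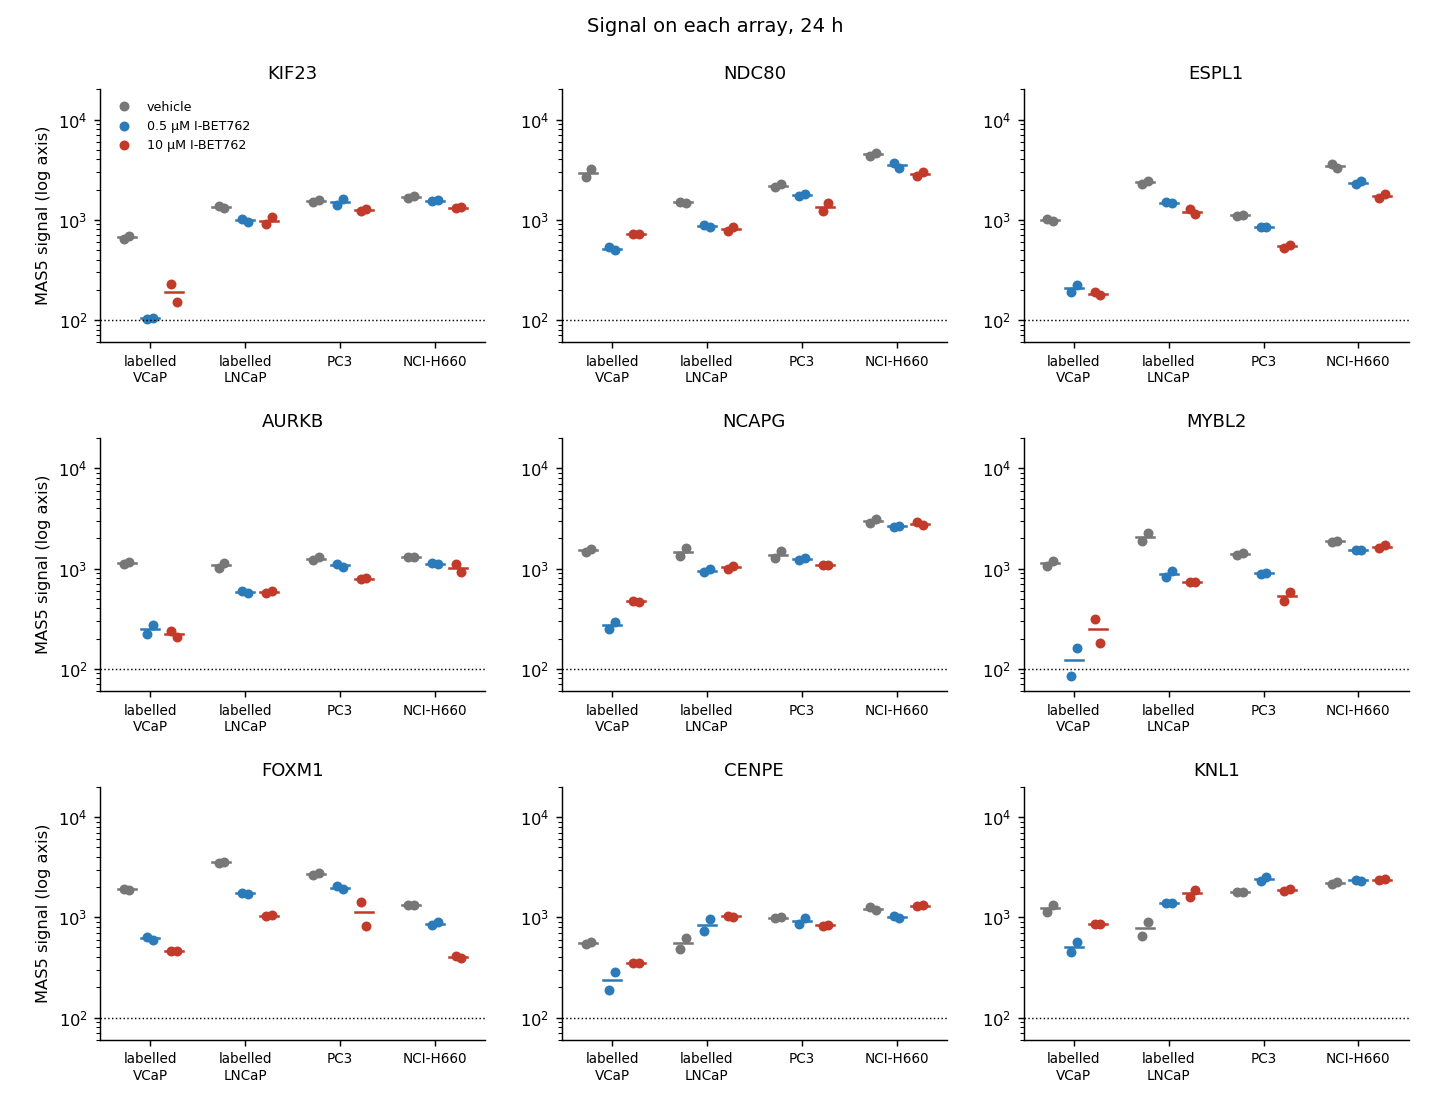
MAS5 signal of 9 genes on every array (log axis), with vehicle, 0.5 µM and 10 µM I-BET762 in order of dose within each line; each point is 1 array (n = 2 per group), short lines are group means and the dots across each panel stand at a signal of 100. FOXM1 steps down in each line, and ESPL1 in each but that labelled VCaP, where it is low at both doses. KIF23 lies between 103 and 231 on the treated arrays labelled VCaP against 639 and 695 in vehicle. KNL1 and CENPE lie above vehicle on those labelled LNCaP.

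On the arrays labelled LNCaP, 23 of the 59 fell and 3 rose at 0.5 µM (backgrounds 16.5% and 17.4%), with a median change of −0.20 beside 0.03 over all genes. Median centring moved all changes at 0.5 µM by −0.18, which gave a median of −0.38 with 29 lower and 1 higher. At 10 µM 28 fell and 9 rose (backgrounds 26.7% and 27.1%), and the median was again −0.20. After median centring of the arrays, which moved all changes by −0.13 at 10 µM, 5 genes were called higher in place of 9. By role, 1 of 9 kinesins, 7 of 13 kinetochore genes, 5 of 9 checkpoint genes, 7 of 10 kinase genes, 2 of 7 condensin genes, 1 of 5 spindle assembly genes, 3 of 4 cytokinesis genes and both transcription factors fell at 10 µM, to be read against the same 26.7%. Falls of more than 2-fold numbered 4 (background 11.2%). The 26 calls at 0.5 µM were 17 without the second 0.5 µM replicate, and with this line fitted alone 6 genes fell at 0.5 µM, and 17 fell and 4 rose at 10 µM.

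The 3 genes that rose at 0.5 µM on the arrays labelled LNCaP were KNL1, CENPE and BUB1, and they rose at 10 µM as well. KNL1 (chromosome 15), the kinetochore scaffold that recruits BUB1, read 650.3 and 903 in vehicle, 1403 and 1393 at 0.5 µM and 1611 and 1878 at 10 µM. The changes were 0.87 ± 0.16 and 1.18 ± 0.16 (adjusted p = 0.00225 and 7.04e-05). CENPE (chromosome 4), the kinetochore motor that moves chromosomes to the metaphase plate, read 483 and 622 in vehicle, 733 and 963 at 0.5 µM and 1036 and 1015 at 10 µM (0.62 ± 0.19 and 0.90 ± 0.19). Both groups of treated arrays lay above vehicle for both genes. BUB1 rose by 0.29 and 0.48, and at 0.5 µM the rises of CENPE and BUB1 did not pass after median centring (0.43 and 0.11), whereas that of KNL1 did. None of the 4 other probe sets of BUB1 was called at either dose, and the lowest changed by −0.51 and −0.74. Of the 3 other probe sets of KNL1, 2 were called higher at each dose.

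At 10 µM the further genes called higher there were CENPF (0.79), ASPM (0.78), HMMR (0.48), CDC20 (0.47), SMC4 (0.38) and TTK (0.37), of which HMMR, CDC20, SMC4 and TTK did not pass after median centring. Neither of the 2 other probe sets of CENPF was called, nor either of the 2 of ASPM. The 1 other probe set of HMMR and 1 of the 2 of SMC4 were called higher. ASPM read 3172 and 2926 at 10 µM against 1473 and 2131 in vehicle. CDC20 read 4096 and 4456 in vehicle, 4307 and 4582 at 0.5 µM and 6048 and 5791 at 10 µM. Each of these genes fell on the arrays labelled VCaP at 0.5 µM.

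In PC3, 5 genes fell and 1 rose at 0.5 µM (backgrounds 4.44% and 6.66%), with a median of −0.14. At 10 µM, 32 fell and none rose (backgrounds 14.0% and 16.1%), with a median of −0.41 (1.33-fold lower) and 5 falls of more than 2-fold (background 3.38%). Treated arrays lay below vehicle without overlap for 47 of the 59 (background 34.4%). The count at 10 µM was 21 without the first 10 µM replicate, and it was 0 with PC3 fitted alone, where 24 genes had an unadjusted p under 0.05. In NCI-H660, 4 genes fell and none rose at 0.5 µM (backgrounds 3.27% and 4.36%), and 19 fell and 1 rose at 10 µM (backgrounds 16.8% and 16.9%). The median in NCI-H660 was −0.19 at 0.5 µM and −0.24 at 10 µM. After median centring, which moved all changes at 10 µM by 0.18, the median in NCI-H660 was −0.07, and 10 fell and 3 rose. No share of all genes called after centring is given for this or any other line, so such counts have no background of their own. The calls at 0.5 µM in PC3 and NCI-H660 numbered 0 to 2 without any one of the arrays compared, and 0 after median centring.

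CENPN, an inner kinetochore protein that reads the centromeric nucleosome, was the 1 gene called higher in these 2 lines. In NCI-H660 it read 1411 and 1209 in vehicle, 1444 and 1522 at 0.5 µM and 2172 and 2114 at 10 µM, a rise of 0.71 ± 0.12 at 10 µM (adjusted p = 0.00136). In PC3 it read 3356 and 2863 at 0.5 µM against 2183 and 2387 in vehicle (0.44 ± 0.12, adjusted p = 0.0673), a call that was lost after median centring. In the line labelled VCaP it fell to 2765 and 2614 at 0.5 µM, against 5528 and 5680.0 in vehicle.

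Counted over lines, 35 of the 59 fell in 1 line at 0.5 µM, 18 in 2 lines, 4 in 3 lines (AURKA, BIRC5, TPX2 and PRC1) and 2 in all 4 (BUB1B and ESPL1). At 10 µM, 3 fell in none, 15 in 1 line, 15 in 2 lines, 14 in 3 lines and 12 in all 4. The 12 were NDC80, SPC25, BUB1B, ESPL1, AURKA, AURKB, CCNB1, SMC2, TPX2, PRC1, RACGAP1 and FOXM1, which come from 7 of the 8 roles and include no kinesin. How many of all detected genes fell in several lines was not counted, so these counts have no background of their own. The shares of all genes called lower at 0.5 µM were 13.2% (labelled VCaP), 16.5% (labelled LNCaP), 4.44% (PC3) and 3.27% (NCI-H660). At 10 µM they were 21.8%, 26.7%, 14.0% and 16.8% in the same order. The lists of genes hold for the model shared by the lines and for the chosen probe sets. At 10 µM, 1 of the 2 other probe sets of CENPF was called lower on the arrays labelled VCaP, and 1 in NCI-H660. In PC3 at 10 µM, 2 of the 3 other probe sets of MKI67 and 2 of the 3 of BIRC5 were called lower. After median centring 6 of the 12 were lower in all 4 lines (NDC80, BUB1B, ESPL1, SMC2, PRC1 and FOXM1), with the replicate number as a block 9 were, and with each line fitted alone none was, as PC3 then had no call.

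Setting 10 µM directly against 0.5 µM gave unlike counts in the lines, but whether this difference varied between lines was not tested. In the line labelled VCaP, 20 of the 59 were higher at 10 than at 0.5 µM and 1, UBE2C, was lower (backgrounds 4.29% and 5.62%). The median difference was 0.35, beside 0.00 over all genes, and 47 of the 59 lay above 0. Treated arrays did not overlap, with 10 µM higher, for 39 genes (background 30.9%). The count of 20 higher was 10 without the first 0.5 µM replicate or without the first 10 µM replicate and 13 without the second 10 µM replicate, 12 after median centring, and 0 with this line fitted alone, where 23 genes had an unadjusted p under 0.05.

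The genes higher at 10 µM came from every role. They were 4 kinesins, 4 kinetochore genes, 4 checkpoint genes, 1 cyclin, 2 condensin subunits, 2 spindle assembly genes, 2 cytokinesis genes and MYBL2. KIF18A was 1.03 ± 0.17 higher (adjusted p = 0.00672), with 261 and 325 at 10 µM against 129 and 159 at 0.5 µM. BUB1 was 0.98 ± 0.10 higher (adjusted p = 0.000225), with 795 and 768 against 413 and 381. MYBL2 was 1.04 ± 0.27 higher (adjusted p = 0.0617), a call that was lost after median centring. CENPF (0.90), TTK (0.86), KIF23 (0.85), NCAPG (0.80), CDC20 (0.79) and KNL1 (0.76) followed. All of the 20 but KIF18A, CENPF and SMC4 were called lower than vehicle at 10 µM as well as at 0.5 µM.

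In PC3 the difference ran the other way, with 58 of the 59 lower at 10 than at 0.5 µM, a median of −0.29 and no overlap for 49 genes (background 23.7%). Only 4 passed the test, FOXM1 (−0.86), PLK1 (−0.72), ESPL1 (−0.64) and PRC1 (−0.48), and none was higher (backgrounds 1.17% and 0.987%). At an unadjusted p under 0.05, 28 were lower. The count of 4 was 1 without the first 0.5 µM replicate, 2 without the second 10 µM replicate, and 0 after median centring.

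The doses differed little on the arrays labelled LNCaP, with 2 genes lower (FOXM1, −0.74, and SPC25, −0.48) and 1 higher (CDC20, 0.41) against backgrounds of 10.2% and 9.44%. The median was −0.02, which became 0.03 after median centring. The count of 3 was 1 without the second 10 µM replicate and 0 without any one of the other 3 arrays compared. In NCI-H660, 5 were lower at 10 µM (KIF14, FOXM1, CCNB1, ESPL1 and BIRC5) and 1, CENPN, was higher (backgrounds 4.16% and 3.16%), with a median of −0.09 that became 0.02 after median centring, where 2 were lower and 1 higher. Without any one of the 4 arrays compared, 2 genes were called in NCI-H660. KIF14 differed by −1.13 ± 0.20 (adjusted p = 0.0116) and FOXM1 by −1.10 ± 0.18 (adjusted p = 0.00795).

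**Figure D4:**
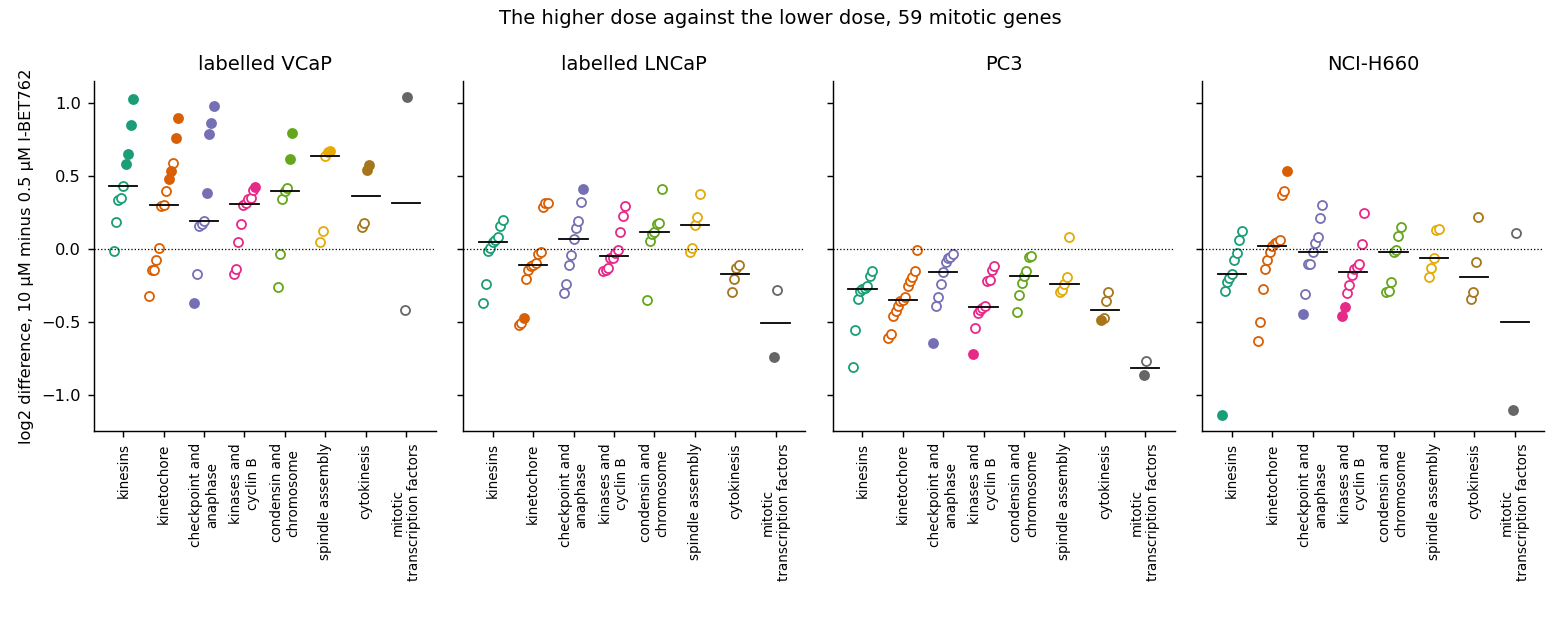
Log2 difference between 10 µM and 0.5 µM I-BET762 for each of the 59 genes, by role, in each line; a point is a gene, filled points were called by limma, and short lines are the medians of a role. In the panel labelled VCaP 47 genes lie above 0, and in PC3 58 lie below it.

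The response of the line labelled VCaP was tested against that of each other line. At 0.5 µM its change was lower than the change on the arrays labelled LNCaP for 55 of the 59 genes (background 5.70%), lower than that in PC3 for 57 (background 5.14%) and lower than that in NCI-H660 for 55 (background 6.68%). It was higher for none (backgrounds 2.99%, 2.23% and 3.80%). The median differences were −1.63, −1.61 and −1.54. KIFC1, a minus-end-directed kinesin, passed in none of these 3 tests, with differences of −1.24, −1.28 and −1.35 (SE 0.41 each). Also short of the threshold were CENPN, FOXM1 and PTTG1 against LNCaP, KIF14 against PC3, and KIF18A, PTTG1 and SPC24 against NCI-H660.

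KIF23 differed by −2.24 ± 0.23, −2.65 ± 0.23 and −2.55 ± 0.23 at 0.5 µM (adjusted p = 0.000187, 2.73e-05 and 4.5e-05), against labelled LNCaP, PC3 and NCI-H660 in this order. TOP2A differed by −2.32 ± 0.20 and KNL1 by −2.14 ± 0.22 against labelled LNCaP, where KNL1 itself rose. MYBL2 differed by −2.99 ± 0.38 against NCI-H660 (adjusted p = 0.000701). FOXM1 differed by −0.61 ± 0.25 against labelled LNCaP (adjusted p = 0.296), so its fall in these 2 lines was not told apart at this precision.

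At 10 µM the change in the line labelled VCaP was lower for 51 genes against labelled LNCaP (background 12.1%), 38 against PC3 (background 10.5%) and 46 against NCI-H660 (background 14.0%). It was higher for none (backgrounds 9.78%, 6.56% and 12.1%). The median differences were −1.09, −0.91 and −0.99. UBE2C differed by −1.99, −2.05 and −2.42 (SE 0.15 each), and CDK1 by −2.11, −1.42 and −2.22 (SE 0.21 each). FOXM1 passed in none of the 3 tests, with −0.29, −0.74 and −0.32 (SE 0.25 each), nor did KIF18A, with −0.09, 0.13 and 0.23 (SE 0.25 each).

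The levels in vehicle were also compared between the lines. Against labelled LNCaP, 17 genes were higher and 19 lower in the line labelled VCaP (backgrounds 33.2% and 28.7%), with a median difference of −0.03. Against PC3, 10 were higher and 26 lower (backgrounds 33.7% and 31.9%, median −0.31), and against NCI-H660 8 were higher and 36 lower (backgrounds 36.1% and 35.2%, median −0.56). The counts against labelled LNCaP lie near the backgrounds, whereas against PC3 and NCI-H660 more genes were lower than higher. Median centring moved these differences by 0.03, 0.21 and 0.40, which leaves medians of −0.09 against PC3 and −0.17 against NCI-H660. CENPN was 1.67, 1.30 and 2.10 higher in the line labelled VCaP, and SPC24 2.25, 0.98 and 1.35 higher. TTK, the kinase that starts checkpoint signalling, differed by −1.17, −1.01 and −2.47, and KIF15, a motor that helps to keep the spindle bipolar, by −2.60 against NCI-H660.

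Other lists of related genes were counted beside the 59. Of 42 other G2 and M phase genes, all fell at 0.5 µM on the arrays labelled VCaP (median −1.51), with HJURP, which loads the centromeric histone, at −2.63 and cyclin A2 (CCNA2) at −2.49. At 10 µM 36 of these 42 fell there (background 21.8%), 29 on the arrays labelled LNCaP (background 26.7%), 22 in PC3 (background 14.0%) and 11 in NCI-H660 (background 16.8%). Of 20 genes that license and start DNA replication, 20 fell at each dose on the arrays labelled VCaP (medians −2.01 and −2.49, backgrounds 13.2% and 21.8%), and 18 and 20 on those labelled LNCaP (medians −1.08 and −1.77, backgrounds 16.5% and 26.7%). Under the LNCaP label 23 and 28 of the 59 mitotic genes fell at the same doses. Between the doses 9 of the 20 replication genes were lower at 10 than at 0.5 µM and none higher on the arrays labelled VCaP (median −0.51, background 5.62% lower), MCM5 with a difference of −1.28, where 20 of the mitotic genes were higher.

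Lists of neighbouring functions were counted at 0.5 µM on the arrays labelled VCaP, where 13.2% of all detected genes were lower and 11.8% higher. Of 14 subunits of the anaphase-promoting complex, the ubiquitin ligase that CDC20 activates, 2 fell and 2 rose, near these shares. Of 14 genes of cohesin and of condensin II, 7 fell, with CDCA5, the cohesin protector sororin, at −2.21. LIN54, the subunit of the DREAM complex that binds CHR elements, changed by −1.60, and 4 of 11 genes of that complex fell. Of 24 tubulins and interphase kinesins 3 fell and 6 rose.

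Markers of cell identity were counted at 10 µM as well. Of all detected genes 21.8% fell and 20.1% rose in the line labelled VCaP, and 26.7% and 27.1% in that labelled LNCaP. The shares were 14.0% and 16.1% in PC3 and 16.8% and 16.9% in NCI-H660. Counts of 1 gene in these short lists lie near or under such shares. Of 8 luminal prostate markers 3 fell and none rose in the line labelled VCaP, and likewise 3 and none under the LNCaP label, where KLK3 changed by −5.13 and ACPP, prostatic acid phosphatase, by −4.43. Of 8 neuroendocrine markers none fell in any line, and 1 rose in the line labelled VCaP (ENO2, 0.81), 2 in that labelled LNCaP and 1 in PC3. Of 7 basal and mesenchymal markers none fell and 1 rose in the line labelled VCaP (VIM, 1.01), and 1 fell and 1 rose in PC3. In that labelled LNCaP 3 fell (KRT14 at −3.79, CD44 at −1.98 and FN1 at −1.60) and 1 rose (CDH2 at 3.50). No marker of the 3 lists was called in NCI-H660. The part of these markers in the changes of the 59 was not tested.

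**Figure D5:**
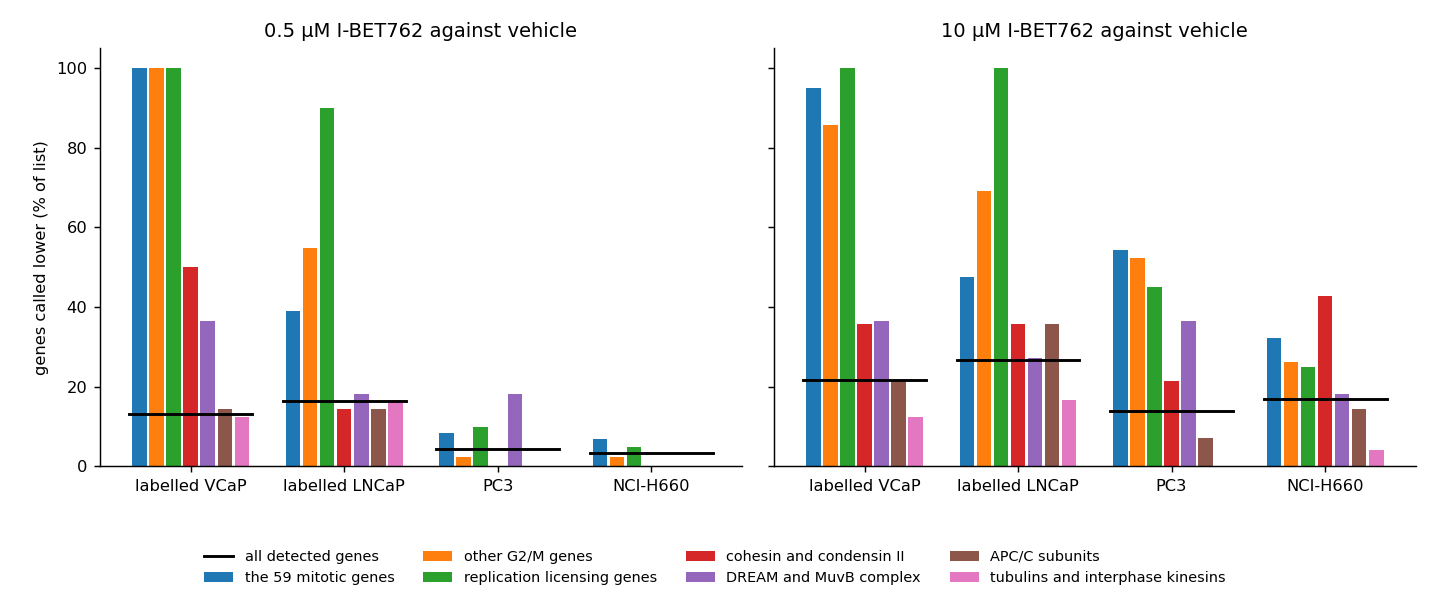
Share of each gene list called lower against vehicle (% of the list's genes), by line, at 0.5 µM (left) and 10 µM (right); black lines give the share of all detected genes called lower. For the line labelled VCaP the 59 mitotic genes, the other G2 and M phase genes and the replication genes all reach 100% at 0.5 µM, and on those labelled LNCaP the replication genes stand highest.

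Genes with and without the CHR letters were compared as well. On the arrays labelled VCaP at 0.5 µM the 38 genes with CHR letters had a median of −1.69 and the 11 without them −2.00. All 49 were called lower (background 13.2%). The largest and the smallest fall of the 49, in MYBL2 and PTTG1, were both in genes without CHR letters. Between the doses on these arrays, 16 of the 38 with CHR letters and 2 of the 11 without were higher at 10 µM (background 4.29%). The median differences were close, 0.40 with and 0.34 without CHR letters. By CCAAT letters, 11 of 36 genes with them and 7 of 13 without were higher. Whether these groups differed was not tested. For 29 of the 59 genes other probe sets existed, 57 in all. At 0.5 µM 54 of them changed in the same direction as the chosen one on the arrays labelled VCaP and 49 on those labelled LNCaP. In PC3 39 did so and in NCI-H660 41. At 10 µM the numbers were 49 (labelled VCaP), 47 (labelled LNCaP), 48 (PC3) and 43 (NCI-H660). No other probe set was called in the opposite direction against vehicle in any line.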

How the data were processed

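RNA from 24 cultures was hybridised to Affymetrix U133 Plus 2.0 arrays. The authors processed the probe-level files with MAS5, scaling each array to a target intensity of 500, and the deposited values are these intensities on a linear scale, taken here from the series value table. Of 54675 probe sets, 62 controls were left out and 54613 tested. The platform annotation gave 1 symbol to 41091, several to 1801 (not used) and none to 11721.

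The log2 of each signal entered 1 linear model with a mean for each of 12 groups, run with limma 3.58.1 under R 4.3.3 (12 residual and 1.29 prior degrees of freedom, no trend), with Benjamini-Hochberg adjustment over all probe sets per contrast. The precision is limited by 2 biological replicates per group. The fit was tested on simulated data. The members and lists were chosen with earlier results of these data known. Values on every array are given for the 2 largest called changes per role on the arrays labelled VCaP at 0.5 µM, the largest per role in each other line at 10 µM, up to 2 rises per contrast and up to 3 changes between doses per line; up to 3 genes are named per other list. Other genes named with values serve single comparisons and were chosen after their values were seen. Promoters were read from RefSeq windows (GRCh38.p14). Within a line, deviations of samples with the same replicate number correlated at −0.056 to 0.076, so no deviation shared by such samples was seen. Whether they were handled as pairs cannot be told from this. Alternatives were another floor or none, an intensity trend, median centring, quantile normalization, a separate fit per line, a stricter adjusted p, a replicate block, the mean over a gene's probe sets, and leaving out each array.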

Additional observations from a re-analysis of the deposited data

Results flagged for a closer look

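The change of the mitotic genes differed between lines by a direct test of the difference. At 0.5 µM the change in the line labelled VCaP was different, always lower, for 55 of the 59 genes against the line labelled LNCaP, 57 against PC3 and 55 against NCI-H660. At 10 µM this held for 51 genes against labelled LNCaP, 38 against PC3 and 46 against NCI-H660. The backgrounds for these counts were 5.70%, 5.14%, 6.68%, 12.1%, 10.5% and 14.0% in the same order. All 6 comparisons share the arrays labelled VCaP, so they are not independent of each other, and their cause was not tested.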

How the results depend on the processing

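The changes of named genes were recomputed under quantile normalization, median centring and the replicate block. None of these 57 changes reversed, and 0, 8 and 8 of them no longer passed the test. Median centring turned the median difference between the doses to 0.03 (labelled LNCaP) and 0.02 (NCI-H660), where it was −0.02 and −0.09. On the arrays labelled VCaP the count of called genes against vehicle stayed within 1.5 times of 59 at 0.5 µM and of 56 at 10 µM under every alternative; leaving out single arrays gave 58 to 59 and 52 to 54. A floor of 200 or none changed no count by more than that in any comparison. With each line fitted alone, which leaves fewer samples for the spread, the calls against vehicle at 0.5 µM were 6 (labelled LNCaP), 0 (PC3) and 0 (NCI-H660), at 10 µM they were 21, 0 and 13 in these lines, and between the doses they were 0 in each of the 4 lines; at an unadjusted p under 0.05 the counts of 0 were 3 (PC3) and 14 (NCI-H660) at 0.5 µM, 24 (PC3) at 10 µM, and between the doses 23 (labelled VCaP), 3 (labelled LNCaP), 11 (PC3) and 10 (NCI-H660). After median centring the calls were 0 at 0.5 µM in PC3 and in NCI-H660 (15 and 9 unadjusted), 13 at 10 µM in NCI-H660, and between the doses 13 (labelled VCaP), 0 (PC3, 15 unadjusted) and 3 (NCI-H660); other causes were not tested. An intensity trend gave 15 (PC3) and 15 (NCI-H660) at 0.5 µM, and 9 (labelled LNCaP), 21 (PC3) and 10 (NCI-H660) between the doses. At an adjusted p of 0.05 the calls were 1 (PC3) and 2 (NCI-H660) at 0.5 µM and 1 (PC3) and 3 (NCI-H660) between the doses. Quantile normalization gave 7 and the mean over probe sets 8 between the doses in PC3.

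With the replicate number as a block, although no deviation shared by such samples was seen, the calls at 0.5 µM were 2 (PC3) and 1 (NCI-H660). Between the doses they were 1 (labelled LNCaP), 0 (PC3, 24 unadjusted) and 2 (NCI-H660). The block moved no other count by over 1.5 times.

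Leaving out single arrays gave, at 0.5 µM, 17 to 21 calls (labelled LNCaP), 0 to 2 (PC3) and 0 to 2 (NCI-H660), and at 10 µM 26 to 29, 21 to 27 and 16 to 18. Between the doses it gave 0 to 1 (labelled LNCaP), 10 to 17 (labelled VCaP), 1 to 4 (PC3) and 2 (NCI-H660). For the differences in response it gave 49 to 52, 52 to 56 and 51 to 54 at 0.5 µM and 41 to 47, 36 to 39 and 39 to 44 at 10 µM (against labelled LNCaP, PC3 and NCI-H660), and for the vehicle levels 29 to 32, 33 and 39 to 42. The lone array left in a group was assumed to vary like the other groups. KIF23, MYBL2, CENPI and KIF18A had mean signals of 103, 122, 123 and 144 at 0.5 µM in the line labelled VCaP, close to the floor of 100, which limits how far their falls could be measured.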
